A study of Sus scrofa domesticus with 12 samples.

Results

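The transforming growth factor β (TGF-β) genes described here are 3 ligands (TGFB1, TGFB2 and TGFB3), 3 receptors (TGFBR1, TGFBR2 and TGFBR3), 2 intracellular SMADs (SMAD3 and SMAD7) and 2 genes that TGF-β is known to induce (TGFBI and CTGF). They were chosen by name, with earlier results of these data known. All 10 were found among the 11506 rows of the expression table. Of these, 9 were found by their symbol and TGFBR2 by its gene ID, because the table carries it as LOC100038019. Levels are in TPM, a transcript's share of all transcripts in a library, corrected for transcript length and scaled to a common sum. All 10 had at least 1 TPM in every library, so each of them was tested.

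RNA-seq was done on the peroneous tertius (PT) muscle of female Yorkshire Cross pigs, 12 weeks after surgery, in 12 limbs of 11 pigs. In the injured limbs a block of the PT muscle had been cut out, which is volumetric muscle loss (VML), a loss of tissue too large for the muscle to regenerate. The defect was left without repair in 2 limbs (non-repaired), filled with a cross-linked hyaluronic acid hydrogel in 2 limbs (Hya-repaired, labelled HA) and filled with a decellularized extracellular matrix in 6 limbs (ECM-repaired). The 2 sham-operated limbs (the shams) came from pigs 025 and 026. The labels call the 6 ECM limbs SIS, a matrix from small intestine, whereas the study divides its ECM limbs between SIS and a urinary bladder matrix, so they were kept as 1 group. Both limbs of pig 017 were used, the left non-repaired and the right Hya-repaired. The pigs were young adults at the end of the study, and the labels put the condition under a time point field, with no other time. p-values measure the spread between limbs, with 2 limbs in 3 of the groups. TPM keep no read counts, so the depth behind each value is unknown.

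TGF-β ligands are secreted in a latent form, bound to the matrix, and act after release by integrins, proteases or thrombospondin. The active ligand binds the type II receptor TGFBR2, which recruits and phosphorylates the type I receptor TGFBR1, while betaglycan (TGFBR3) presents ligand to them. The receptors phosphorylate SMAD2 and SMAD3, which enter the nucleus with SMAD4 and raise transcription of matrix genes, while SMAD7 is itself induced and inhibits the receptors. In skeletal muscle the pathway is known for driving fibroblasts to deposit matrix and for restraining the differentiation of muscle precursors.

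Injured muscle had higher levels of the 3 ligands, the 3 receptors and both targets than sham-operated muscle, and neither SMAD passed the test on TPM as deposited. Of the 10 genes, 8 were called higher and 0 lower in VML-injured muscle, the mean of the 3 injured groups with equal weight (limma, adjusted p below 0.05). Over all 8782 genes tested, 49.4% were called higher and 7.66% lower. The median log2 fold change (log2FC) of the 10 genes was 2.08, against 0.73 over all tested genes. All 10 injured limbs were above both sham-operated limbs for 8 of the genes, an arrangement seen in 49.8% of the genes tested.

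The scale of TPM bears on these counts. Transcripts of the muscle fiber took up a large share of the sham-operated libraries, where 11 fiber markers such as CKM, ACTA1 and MYH2 summed to 107375 and 113219 TPM, against 6977 to 50847 TPM in the injured limbs. TPM were also rescaled by a factor per library, from log ratios trimmed of their extremes. The factor was 1.75 and 1.43 in the shams and 0.625 to 1.18 in the injured limbs. Rescaling took the median log2FC over the tested genes from 0.73 to -0.01. The part of fiber transcripts in that shift was not tested. On the rescaled values 28.8% of the genes were called higher and 28.8% lower in VML-injured muscle, and 6 of the 10 TGF-β genes were higher and 2 lower, with a median of 1.31. Rescaled TPM of all 10 injured limbs lay above both shams in 28.6% of the tested genes and below both in 27.8%, against 5 and 2 of the 10 TGF-β genes. The rescaled values are given below beside each gene.

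**Figure D1:**
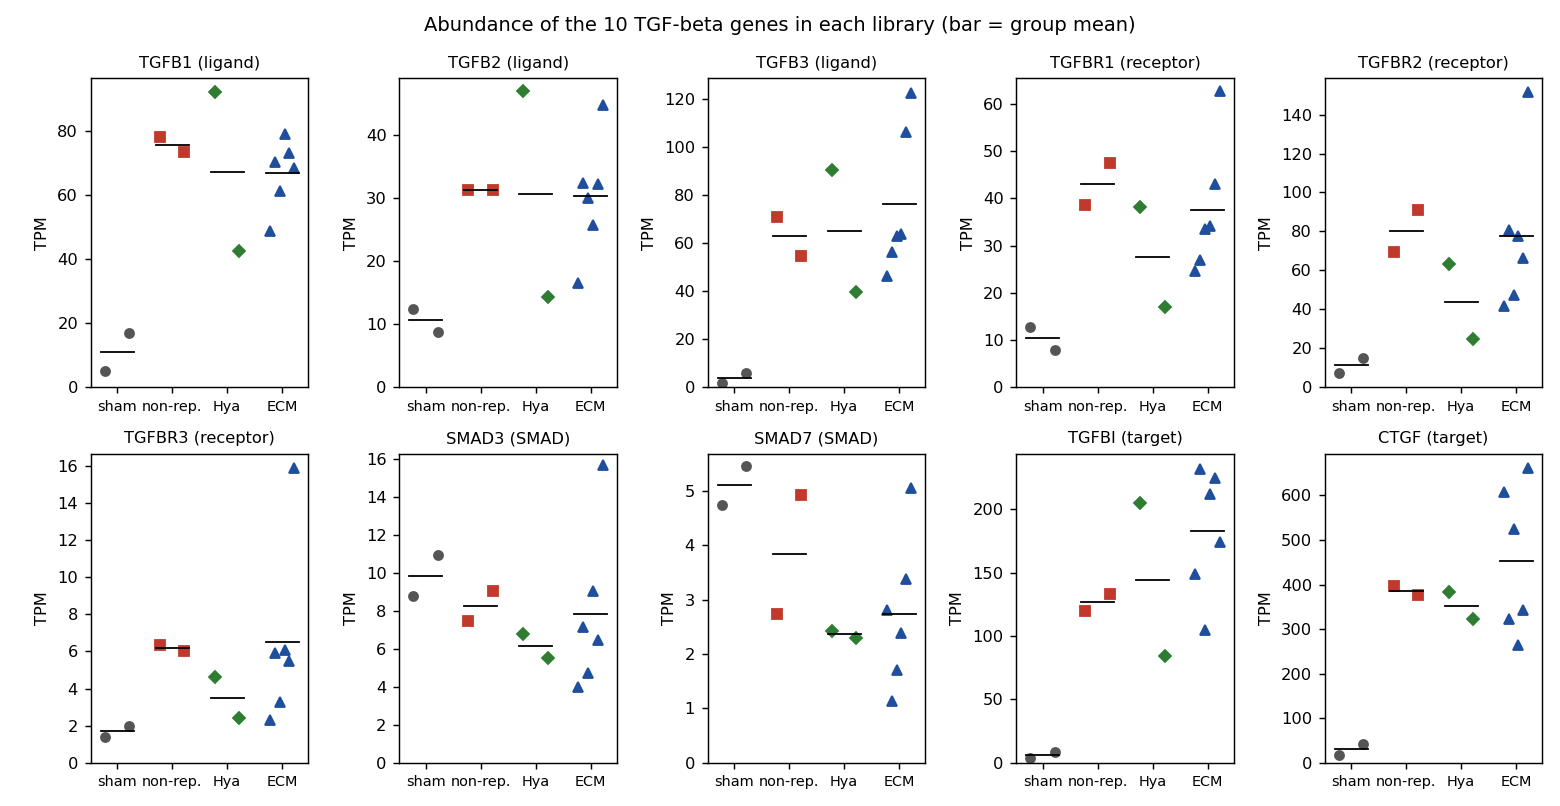
TPM (vertical axis, linear, from 0) of each gene in the 12 libraries, by condition, with 1 point per limb and a bar at the group mean; non-rep. stands for non-repaired. The injured limbs lie above both sham-operated limbs for the ligands, receptors and targets, from 14.3 TPM against 12.4 TPM for TGFB2 to 263.7 TPM against 41.9 TPM for CTGF, and overlap them for SMAD3 and SMAD7.

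Among the ligands, TGFB3 and TGFB1 rose in every injured group, and TGFB3 had the largest log2FC of the 3. TGFB1, the isoform most often tied to fibrosis, was at 5.15 and 16.8 TPM in the shams, 78.0 and 73.3 TPM in the non-repaired limbs, 92.0 and 42.5 TPM in the Hya-repaired limbs, and 48.7 to 78.9 TPM with a median of 69.3 TPM in the ECM-repaired limbs. The lowest injured limb, the Hya-repaired limb of pig 017, was above the higher sham. The mean rose from 11.0 ± 8.27 (SD, n = 2) in the shams to 68.6 ± 14.6 TPM (SD, n = 10), a log2FC of 2.79 ± 0.37 (SE, limma adjusted p = 5.37e-05), or 2.02 on rescaled TPM (adjusted p = 0.000463). The sham-operated limbs differed from each other more than the non-repaired limbs did, and the log2FC was 1.98 without the sham of pig 025 and 3.60 without that of pig 026.

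TGFB3, known from palate formation and wound repair, was at 1.58 and 5.81 TPM in the shams. It was at 70.8 and 54.6 TPM in the non-repaired limbs, 90.3 and 39.8 TPM in the Hya-repaired limbs, and 46.4 to 122.4 TPM with a median of 63.3 TPM in the ECM-repaired limbs. Every injured limb was thus several times above either sham, and the ECM-repaired limbs of pigs 022 and 024 were the highest. TGFB3 had a log2FC of 4.17 ± 0.45 (SE, limma adjusted p = 1.25e-05), and 3.46 on rescaled TPM (adjusted p = 2.45e-05). The means were 3.69 ± 3.00 TPM (SD, n = 2) and 71.3 ± 26.7 TPM (SD, n = 10). Among the 8782 tested genes, the mean TPM of TGFB3 went from the percentile 34.0 in sham-operated to 85.8 in injured muscle.

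TGFB2 was the ligand that moved least. It was at 12.4 and 8.69 TPM in the shams, 31.2 TPM in both non-repaired limbs, 47.0 and 14.3 TPM in the Hya-repaired limbs, and 16.4 to 44.7 TPM with a median of 31.1 TPM in the ECM-repaired limbs. The groups did not overlap, but the Hya-repaired limb of pig 017 came close to the higher sham. TGFB2 rose by a log2FC of 1.42 ± 0.40 (SE, limma adjusted p = 0.00932). The call ended on rescaled TPM, with a log2FC of 0.64 (adjusted p = 0.116) and 8 of 10 injured limbs above both shams, and without the sham of pig 026 (1.17, adjusted p = 0.0991).

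The make-up of the ligand transcripts therefore differed between sham-operated and injured muscle. TGFB3 made up 8.22 and 18.6% of the summed TPM of the 3 ligands in the shams of pigs 025 and 026, and 34.3 to 52.0% in the injured limbs. TGFB2 made up 64.9 and 27.7% in the shams and 14.7 to 20.5% in the injured limbs. TGFB1 made up 26.9 and 53.7% in the shams, on either side of the 29.0 to 46.8% in the injured limbs. So TGFB2 led in 1 sham and TGFB1 in the other, while in the injured limbs TGFB1 and TGFB3 held most of the ligand pool and TGFB2 was the smallest part in every limb. The 3 ligands summed to 19.2 and 31.3 TPM in sham-operated and 96.6 to 235.3 TPM in injured limbs.

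**Figure D2:**
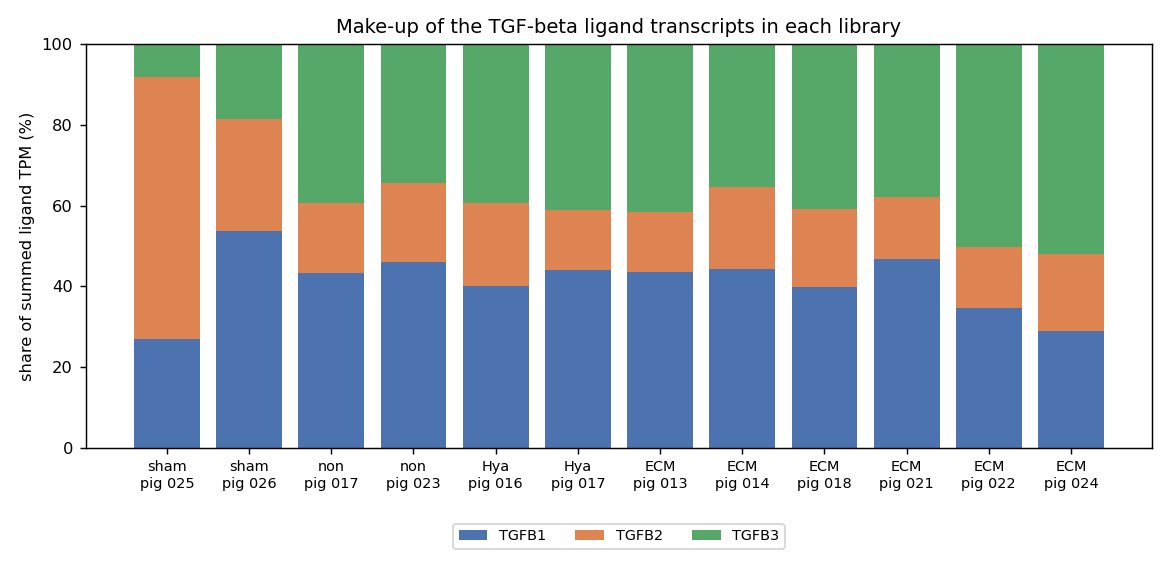
Share (%, vertical axis) of TGFB1, TGFB2 and TGFB3 in their summed TPM, with 1 stacked bar for each of the 12 limbs, labelled by condition and pig. TGFB3 took 8.22 and 18.6% of the bar in the shams and at least 34.3% in every injured limb.

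A ratio within a library is free of the scale of TPM apart from the 0.5 TPM added to both genes, and ratios were tested for 8 pairs of genes by a two-sided exact permutation test over all 66 splits of 10 injured and 2 sham-operated limbs. With the smaller tail doubled, an exact p = 0.0303 is the smallest this design allows, and it becomes 0.0485 after Benjamini-Hochberg adjustment over the 8 ratios. The log2 ratio of TGFB3 to TGFB1 was -1.45 and -1.46 in the shams and -0.42 to 0.84 in the injured limbs, a difference of 1.46 at the smallest exact p. That of TGFB3 to TGFB2 differed by 2.80, also at the smallest exact p, and by 1.75 without the sham of pig 025. That of TGFB2 to TGFB1 was -0.92 and 1.20 in the shams and -1.60 to -0.60 in the injured limbs, where pig 024 alone lay above the lower sham, and the difference of -1.35 did not pass (exact p = 0.0606, adjusted p = 0.0808).

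These calls are at the limit of the design. Of the 8 ratios, 5 passed after adjustment, and 0 passed with 1 limb of pig 017 left out so that each pig counts once, where 55 splits give an exact p of 0.0364 at the least and an adjusted p of 0.0582. The same held without any other single injured limb but that of pig 024, whose absence left 6 ratios passed at an adjusted p of 0.0485, TGFB2 to TGFB1 among them (-1.41). With either sham left out the smallest exact p is 0.182, and with 0.1 TPM added in place of 0.5 no ratio passed either (smallest adjusted p = 0.0606). The direction of every ratio was kept in each of these fits.

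Of the receptors, both signaling chains rose, and betaglycan had a weaker call. TGFBR2, which binds the ligand, was at 7.46 and 14.9 TPM in the shams, 69.2 and 91.1 TPM in the non-repaired limbs, 63.4 and 24.5 TPM in the Hya-repaired limbs, and 41.5 to 151.4 TPM with a median of 72.1 TPM in the ECM-repaired limbs. Injured and sham-operated limbs did not overlap on either scale, and the ECM-repaired limb of pig 024 stood well above the others. The mean rose from 11.2 ± 5.26 (SD, n = 2) in the shams to 71.3 ± 34.5 TPM (SD, n = 10), a log2FC of 2.46 ± 0.45 (SE, limma adjusted p = 0.00064), or 1.69 on rescaled TPM (adjusted p = 0.0013).

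TGFBR1, the kinase that phosphorylates SMAD2 and SMAD3, was at 12.8 and 7.87 TPM in the shams, 38.5 and 47.6 TPM in the non-repaired limbs, 38.2 and 17.01 TPM in the Hya-repaired limbs, and 24.7 to 62.7 TPM with a median of 33.9 TPM in the ECM-repaired limbs. Again the Hya-repaired limb of pig 017 was the lowest injured limb and the ECM-repaired limb of pig 024 the highest. TGFBR1 rose by a log2FC of 1.71 ± 0.36 (SE, limma adjusted p = 0.00169), and by 0.93 on rescaled TPM (adjusted p = 0.0103), where 9 of 10 injured limbs were above both shams. The log2 ratio of TGFBR1 to TGFBR2 was 0.74 and -0.88 in the shams and -1.57 to -0.50 in the injured limbs, a difference of -0.82 (exact permutation p = 0.212, adjusted p = 0.242) that was -0.01 without the sham of pig 025.

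TGFBR3 was the least abundant of the receptors, at 1.42 and 1.98 TPM in the shams, 6.34 and 5.997 TPM in the non-repaired limbs, 4.60 and 2.42 TPM in the Hya-repaired limbs, and 2.28 to 15.9 TPM with a median of 5.69 TPM in the ECM-repaired limbs. The limb of pig 024 was again far above the others, and the lowest ECM-repaired limb, that of pig 013, lay only just above the higher sham. TGFBR3 was called higher by a log2FC of 1.29 ± 0.50 (SE, limma adjusted p = 0.042). The call ended on rescaled TPM (0.63, adjusted p = 0.157), and also without the sham of pig 025 (1.11, adjusted p = 0.236) or that of pig 026 (1.48, adjusted p = 0.104). Relative to TGFBR2, betaglycan was lower in every injured limb, with log2 ratios of TGFBR3 to TGFBR2 of -2.06 and -2.64 in the sham-operated and -3.92 to -3.10 in the injured limbs, a difference of -1.20 at the smallest exact p.

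Neither SMAD passed the test on TPM as deposited. SMAD3, which carries the signal to the nucleus, was at 8.80 and 10.9 TPM in the shams, 7.45 and 9.04 TPM in the non-repaired limbs, 6.76 and 5.53 TPM in the Hya-repaired limbs, and 3.999 to 15.7 TPM with a median of 6.80 TPM in the ECM-repaired limbs. Of the injured limbs, 7 were below both shams and 1, that of pig 024, was above both. The log2FC was -0.44 ± 0.39 (SE, 95% interval -1.28 to 0.40, limma adjusted p = 0.343). On rescaled TPM SMAD3 was at 15.4 and 15.6 in the shams and at 4.38 to 9.79 in the injured limbs, all of them lower, with a log2FC of -1.21 (adjusted p = 0.00196).

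SMAD7, the inhibitory SMAD, was at 4.74 and 5.46 TPM in the shams, 2.74 and 4.92 TPM in the non-repaired limbs, 2.43 and 2.29 TPM in the Hya-repaired limbs, and 1.13 to 5.04 TPM with a median of 2.60 TPM in the ECM-repaired limbs. No injured limb was above both shams and 8 were below both, the others being the non-repaired limb of pig 023 and the ECM-repaired limb of pig 024. The log2FC of -0.76 ± 0.39 (SE, 95% interval -1.61 to 0.09) did not pass the test (limma adjusted p = 0.115), and it was -0.82 and passed without the limb of pig 024 (adjusted p = 0.0437). On rescaled TPM all 10 injured limbs, at 1.24 to 3.72, were below the shams at 8.31 and 7.81, with a log2FC of -1.50 (adjusted p = 0.00119). The log2 ratio of SMAD7 to SMAD3 was -0.83 and -0.94 in the shams, within the -2.23 to -0.44 of the injured limbs, and differed by -0.37 (exact permutation p = 0.394).

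So the direction of both SMADs was downward on either scale, and whether it was called depended on the scale. As shares of all transcripts they were not called, and relative to the trimmed mean of the other genes they fell. Their place among the tested genes went down as well, but this is no separate support. Where the median gene rises, by a log2FC of 0.73 here, a gene with unchanged TPM loses place. By mean TPM, SMAD3 went from the percentile 58.7 in sham-operated to 34.8 in injured muscle, and SMAD7 from 42.0 to 14.9.

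Both targets rose in every injured group, and TGFBI had the largest log2FC of the 10 genes. TGFBI, a secreted matrix protein that binds collagens and integrins, was at 3.72 and 8.35 TPM in the shams, 120.2 and 133.6 TPM in the non-repaired limbs, 204.8 and 84.1 TPM in the Hya-repaired limbs, and 104.6 to 232.2 TPM with a median of 193.1 TPM in the ECM-repaired limbs. No injured limb came near the shams, and the ECM-repaired limbs of pigs 014, 022 and 021 were the highest. The mean rose from 6.04 ± 3.27 (SD, n = 2) in the shams to 163.9 ± 53.2 TPM (SD, n = 10), a log2FC of 4.55 ± 0.38 (SE, limma adjusted p = 2.19e-06), or 3.80 on rescaled TPM (adjusted p = 1.7e-05). TGFBI was placed 92 among the 8782 genes by the size of its log2FC, ahead of TGFB3 at 139 and CTGF at 202.

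CTGF, a matricellular growth factor of fibrotic tissue also named CCN2, was at 18.2 and 41.9 TPM in the shams, 395.9 and 375.8 TPM in the non-repaired limbs, 383.9 and 322.1 TPM in the Hya-repaired limbs, and 263.7 to 660.6 TPM with a median of 433.9 TPM in the ECM-repaired limbs. The lowest and the highest injured limb were both ECM-repaired, pigs 021 and 024. CTGF had a log2FC of 3.78 ± 0.38 (SE, limma adjusted p = 7.28e-06), and 2.99 on rescaled TPM (adjusted p = 0.000108). The means were 30.0 ± 16.7 TPM (SD, n = 2) and 419.9 ± 132.1 TPM (SD, n = 10).

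With 0.5 TPM added to both genes, the ratio of each target to TGFB1 was higher in every injured limb than in the shams. For CTGF this order depended on the amount added. The log2 ratio of TGFBI to TGFB1 was -0.42 and -0.97 in the shams and 0.62 to 1.72 in the injured limbs, a difference of 1.90 at the smallest exact p. That of CTGF to TGFB1 was 1.73 and 1.29 in the shams and 1.73 to 3.63 in the injured limbs, a difference of 1.07 at the smallest exact p. The lowest injured limb, pig 021, only just cleared the sham of pig 025, and with 0.1 TPM added in place of 0.5 the 2 limbs changed places (exact permutation p = 0.0606).

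**Figure D3:**
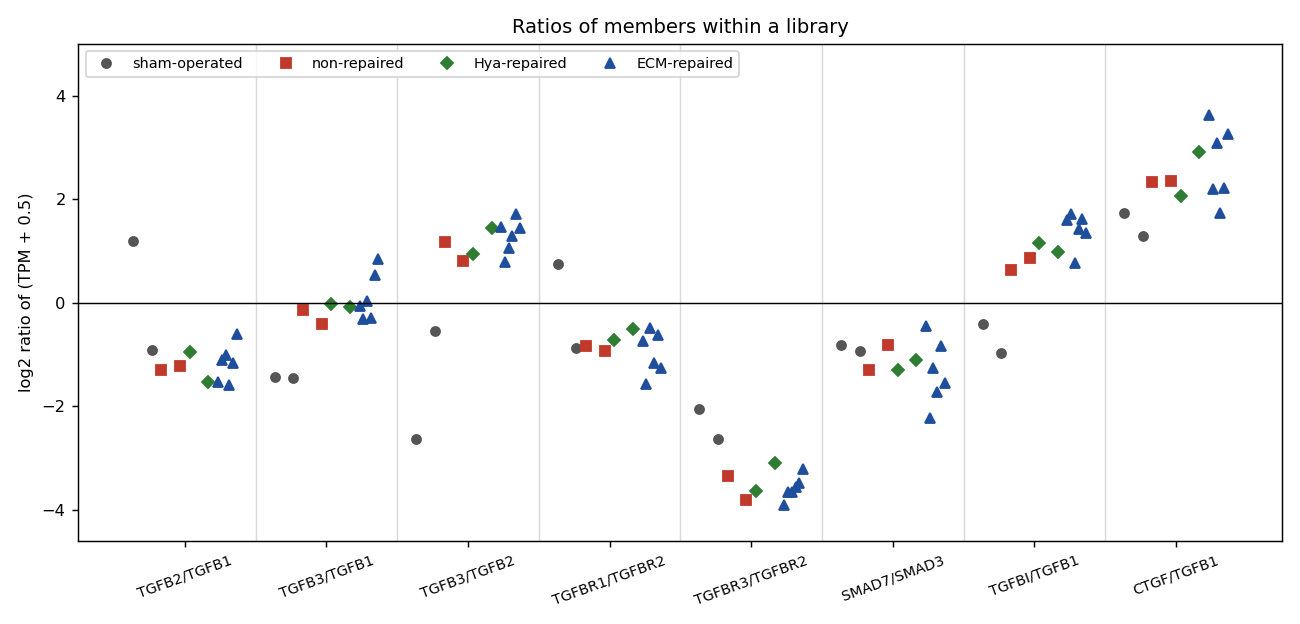
Log2 ratio of TPM + 0.5 (vertical axis) for 8 pairs of genes within each library, with 1 point per limb by condition. The injured limbs lie apart from both sham-operated limbs for TGFB3 to TGFB1, TGFB3 to TGFB2, TGFBR3 to TGFBR2, TGFBI to TGFB1 and, narrowly, CTGF to TGFB1, and overlap them for the other 3 pairs.

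TPM are per transcript length, so levels of the genes are set side by side here. How completely each transcript was captured was not tested, so the order between genes is approximate. CTGF had the highest TPM of the 10 genes in all 12 limbs. TGFBI was second in each of the 10 injured limbs and in neither sham. Both SMADs were below the 3 ligands, TGFBR1 and TGFBR2 in each of the 10 injured limbs, whereas in both shams SMAD3 was above TGFB3. The lowest gene was TGFBR3 in both shams and SMAD7 in 9 of the 10 injured limbs, the exception being pig 013, where TGFBR3 was lower.

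**Figure D4:**
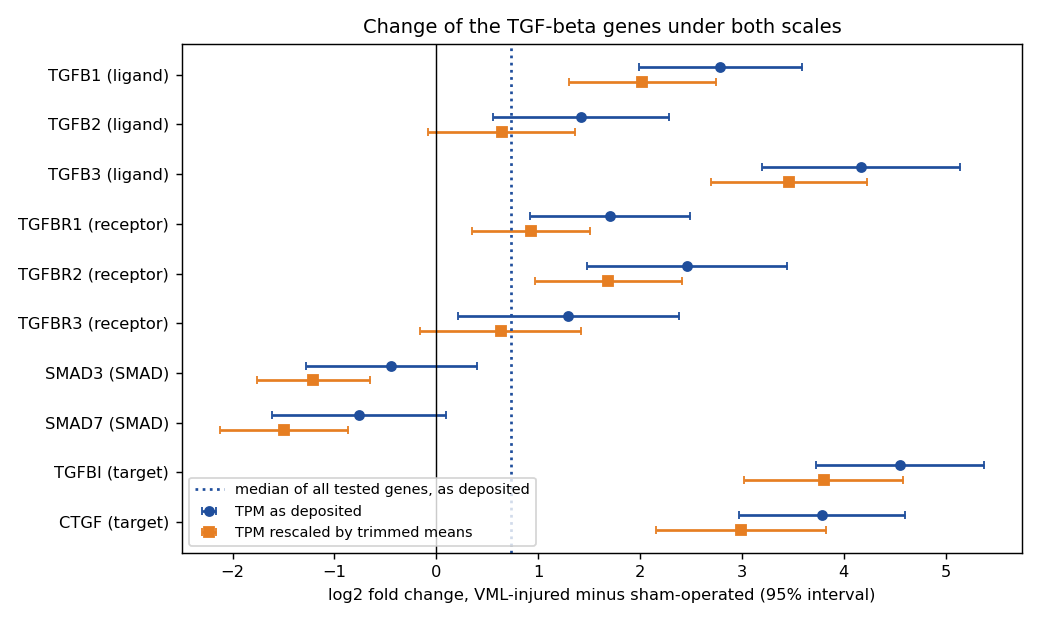
Log2FC of VML-injured against sham-operated muscle (horizontal axis) for the 10 genes, with 95% intervals, on TPM as deposited and on TPM rescaled by trimmed means; the dotted line is the median of all tested genes as deposited, 0.73. The intervals of TGFB1, TGFB3, TGFBR1, TGFBR2, TGFBI and CTGF lie above 0 on both scales, those of TGFB2 and TGFBR3 reach 0 after rescaling, and those of SMAD3 and SMAD7 lie below 0 only after rescaling.

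Each injured group was also compared with the sham-operated limbs, which the groups share, so the comparisons are not independent. In the ECM-repaired group 8 of the 10 genes were higher and 0 lower, against 48% higher and 10% lower of all genes. In the non-repaired group 7 were higher and 0 lower, against 45.1% and 1.18%, and TGFBR3 did not pass (log2FC 1.61, limma adjusted p = 0.0521). In the Hya-repaired group 6 were higher and 0 lower, against 33.9% and 3.76%. There TGFB2 (1.28, adjusted p = 0.06) and TGFBR3 (0.83, adjusted p = 0.311) did not pass.

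The values of the 3 groups are set side by side here, as log2FCs against sham. TGFB1 had 2.75, 2.94 and 2.67 in the ECM, non-repaired and Hya groups, and TGFB3 had 4.32, 4.11 and 4.06. TGFBI had 4.85, 4.38 and 4.43, and CTGF had 3.93, 3.78 and 3.65. The receptors were less even, TGFBR2 at 2.69, 2.85 and 1.85 and TGFBR1 at 1.78, 2.04 and 1.30. In the Hya-repaired group both receptor calls depended on which libraries were fitted. Without pig 016 TGFBR2 had 1.17 and TGFBR1 had 0.73. Without the sham of pig 025 they had 1.38 and 1.64, and TGFBR1 had 0.97 without that of pig 026. With only the Hya-repaired and sham-operated libraries fitted, neither TGFBR2 (limma adjusted p = 0.0551) nor TGFBR1 (adjusted p = 0.098) passed. The call of TGFBR1 also ended without the ECM-repaired limb of pig 021 (adjusted p = 0.0521). The TGFBR1 call ended as well with no filter (adjusted p = 0.0555) and on rescaled TPM (0.70, adjusted p = 0.105). TGFBR2 still passed on rescaled TPM (1.25, adjusted p = 0.0302). TGFB2 had 2.12 in the fit that lacked the Hya-repaired limb of pig 017.

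Repair was asked about by comparing the injured groups with each other, and none of the 10 genes was called. ECM-repaired against non-repaired, Hya-repaired against non-repaired, ECM-repaired against Hya-repaired, and ECM-repaired against the mean of the other two injured groups each had 0% of all tested genes called by limma. None of the 10 genes had an unadjusted p under 0.05 in any of these comparisons. Of all 8782 tested genes 71, 196, 206 and 114 had, so 0 of 10 is near that background. The lowest unadjusted p was that of TGFBR2 in ECM-repaired against Hya-repaired muscle, 0.0977, with a log2FC of 0.83.

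The intervals say how large a difference these limbs could have missed. For ECM-repaired minus non-repaired, the log2 difference of TGFB1 was -0.19 (95% interval -1.02 to 0.63) and that of TGFB3 was 0.20 (-0.80 to 1.20). That of CTGF was 0.15 (-0.69 to 0.99) and that of TGFBI was 0.47 (-0.37 to 1.32). For Hya-repaired minus non-repaired, TGFBR2 was at -0.9995 (-2.24 to 0.24) and TGFBR1 at -0.73 (-1.72 to 0.25). The log2FCs of TGFB1, TGFB3, TGFBI and CTGF between injured and sham-operated muscle lie outside these intervals.

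Pig 017 allows a look within 1 animal, with no test. All 10 genes had lower TPM in its Hya-repaired than in its non-repaired limb, such as TGFB1 at 42.5 against 78.0 TPM and TGFBR2 at 24.5 against 69.2 TPM. Rescaled, 7 were lower and 3 (SMAD3, SMAD7 and CTGF) were higher. The muscle fiber markers summed to 50847 TPM in the Hya-repaired limb, the most of any injured limb, and to 26418 TPM in the non-repaired limb. The Hya-repaired limb of pig 017 was the lowest injured limb for 6 of the 10 genes in TPM and for 4 on rescaled TPM. Its part in the Hya-repaired values beyond the fits without it was not tested.

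Markers of the cells that make and answer TGF-β differed between the samples as well. Markers of fibroblasts summed to 125 and 193.3 TPM in the shams and 2367 to 6146 TPM in the injured limbs, and 7 of 7 with a row, of 8 listed, were called higher. Macrophage markers summed to 25.2 and 41.0 TPM against 470.4 to 1256 TPM, with 7 of 7 higher. None of these markers was at 0 in any library. Endothelial markers summed to 175.2 and 293.8 TPM against 105.9 to 529.9 TPM, with 0 of 7 called as deposited and 2 lower after rescaling. Of the 11 muscle fiber markers 8 were called lower as deposited and 11 after rescaling. Of all tested genes 49.4% were higher and 7.66% lower as deposited, and 28.8% were called in each direction after rescaling. In whole muscle, more cells of a type and more RNA per cell cannot be told apart, and the part of cell make-up in the TGF-β differences was not tested.

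Beyond the 10 genes, 116 other genes of the pathway were listed in 6 groups, of which 88 had a row and 74 were tested. These lists too were written with earlier results of these data known. In VML-injured muscle 53 were called higher, 4 lower and 17 neither, beside the 49.4% higher and 7.66% lower of all tested genes, with a median log2FC of 1.57 against 0.73. After rescaling 42 were higher and 10 lower, beside 28.8% in each direction, with a median of 0.84 against -0.01. These shares are the background for each group that follows. The filter on low values was passed in the shams and in an injured group by 63 of the 74, of which 44 were higher and 3 lower. Another 10 passed it in injured groups alone (BMP6, BAMBI, SMAD9, TNC, LOX, WISP1, WISP2, IGFBP5, NOX4 and CDKN2B), 9 of them higher, and ACVR2B passed it in the shams alone, so their calls follow in part from the filter.

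Genes that store and release latent TGF-β were higher in 8 of 10 tested (49.4% of all genes) and lower in 1 (7.66%), with a median log2FC of 3.33. LTBP3, which tethers latent TGF-β to the matrix, rose from 11.1 ± 6.65 (SD, n = 2) in the shams to 130.6 ± 52.7 TPM (SD, n = 10), a log2FC of 3.57 (limma adjusted p = 6.07e-05). The activator thrombospondin 1 (THBS1) had 3.42, and the integrin chains ITGAV and ITGB5, which pull the ligand free, had 2.17 and 3.36. The proteases MMP2 and MMP14 had 5.48 and 4.99. The 1 lower gene was ITGB6, the epithelial partner of ITGAV, at 7.34 ± 2.35 TPM (SD, n = 2) in sham-operated and 1.41 ± 0.94 TPM (SD, n = 10) in injured limbs (-2.06, limma adjusted p = 0.00521), which was singled out after its values were seen.

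Proteins that bind TGF-β family ligands in the matrix were the group with the highest median, 4.46, with 5 of 6 tested genes higher, against 49.4% of all genes, and 0 lower. They are small proteoglycans for the most part. Asporin (ASPN) rose from 9.33 ± 5.14 (SD, n = 2) in the shams to 1822 ± 492.2 TPM (SD, n = 10), a log2FC of 7.46 (limma adjusted p = 2.64e-07). Biglycan (BGN) had 5.71, fibromodulin (FMOD) 5.43 and decorin (DCN), which sequesters TGF-β, 3.49. These genes are also made by matrix-producing fibroblasts at large, whose markers were higher as given above. The part of fibroblast number in these values was not tested.

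The other ligands of the superfamily were mixed, 3 of 8 higher, a smaller share than the 49.4% of all genes, 1 lower and 4 not called, with a median of 0.40 against 0.73. BMP6, 1 of the 3, passed the filter in injured groups alone. Myostatin (MSTN), the muscle's own inhibitor of growth, fell from 13.1 ± 1.10 (SD, n = 2) in the shams to 2.01 ± 1.61 TPM (SD, n = 10), a log2FC of -2.50 (limma adjusted p = 0.00273). Its close relative GDF11 rose, at 2.08 (adjusted p = 0.000525), and the activin chain INHBA rose, at 0.96 (adjusted p = 0.0232), a call that ended on rescaled TPM (0.25, adjusted p = 0.299). INHBB had -0.16 and was not called.

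Of 10 other receptors, 5 were higher, 1 lower and 4 not called, with a median of 0.81. That is near the background of 49.4% higher and a median of 0.73, so it is no result about these receptors as a group, and after rescaling 3 were higher and 4 lower, with a median of 0.06. ACVR1 had a log2FC of 1.98, ACVRL1, an endothelial type I receptor, had 1.59, and its partner endoglin (ENG) had 1.29, which on rescaled TPM was 0.50 and no longer passed (adjusted p = 0.161). BAMBI, a decoy receptor that lacks the kinase and was under 1 TPM in the shams, rose from 0.84 ± 0.15 (SD, n = 2) in the shams to 5.41 ± 2.38 TPM (SD, n = 10), at 2.18. ACVR2B, through which myostatin signals, fell by 1.44 on the log2 scale (limma adjusted p = 0.00338) and was singled out after its values were seen. ACVR1B had -0.96 and was not called as deposited (adjusted p = 0.0529), and it passed on rescaled TPM at -1.73 (adjusted p = 0.00063).

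Of the other SMADs and regulators inside the cell, 9 of 10 were higher, against 49.4% of all genes, and 0 lower, with a median of 1.26 against 0.73. SMAD9 among them passed the filter in injured groups alone. SMAD2, which acts beside SMAD3, had a log2FC of 1.42 (limma adjusted p = 0.00177) and still passed at 0.69 on rescaled TPM (adjusted p = 0.00703). SMAD4, the shared partner, had 0.93 and SMAD1 of the bone morphogenetic protein branch had 1.07, but neither passed after rescaling, at 0.16 (adjusted p = 0.472) and 0.30 (adjusted p = 0.348). TGIF1, a corepressor, had 1.55 and FKBP1A, which holds the type I receptor silent, had 1.51. After rescaling, 5 of the 10 were higher and 1 lower, against 28.8% of all genes in each direction.

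Other known targets of TGF-β were higher in 23 of 30 tested genes and lower in 1, against 49.4% and 7.66% of all genes, with a median of 2.19. TNC, LOX, WISP1, WISP2, NOX4 and CDKN2B, all called higher, and IGFBP5 passed the filter in injured groups alone. POSTN (periostin), a matrix protein of healing tissue, rose from 11.4 ± 6.07 (SD, n = 2) in the shams to 1918 ± 748.9 TPM (SD, n = 10), a log2FC of 7.33 (limma adjusted p = 3.04e-07). The collagen chains COL1A2 and COL3A1 had 6.08 and 5.79, while COL1A1 is listed at 0 in every library, shams included, and was not tested. The 1 lower gene, named after its values were seen, was the transcription factor BHLHE40 at -1.06 (adjusted p = 0.0188). After rescaling, 20 were higher and 2 lower.

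**Figure D5:**
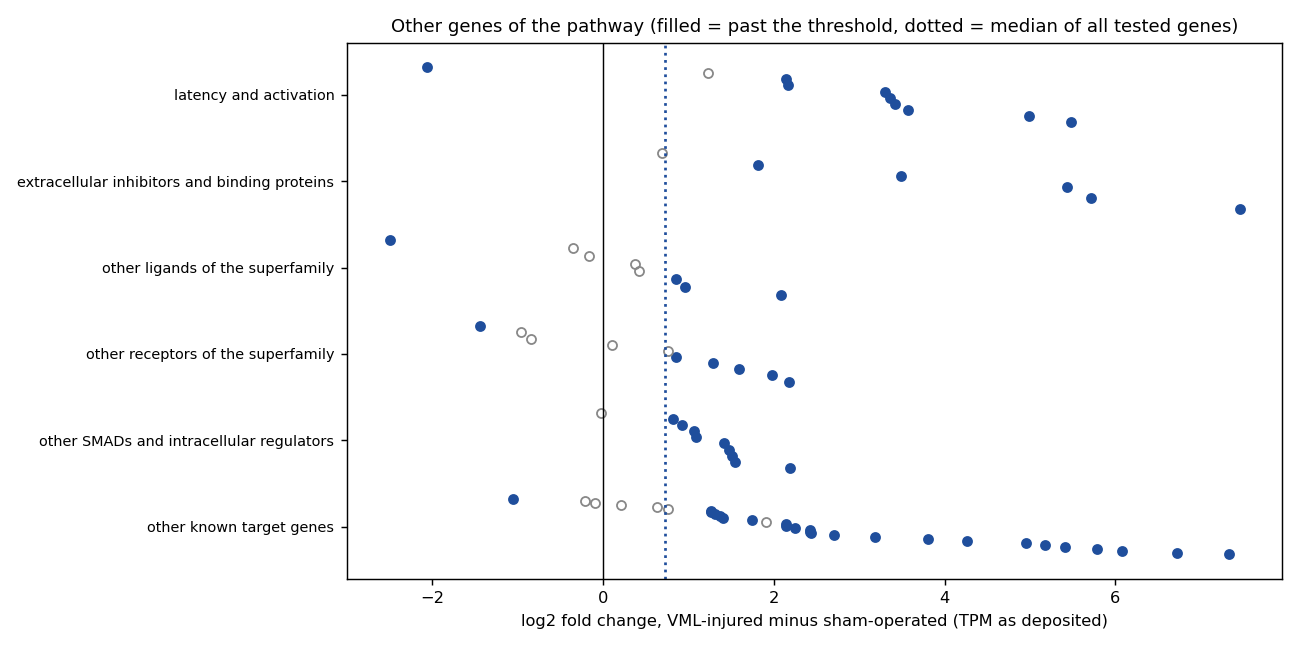
Log2FC of VML-injured against sham-operated muscle on TPM as deposited (horizontal axis) for the 74 tested genes of 6 other pathway groups, with 1 point per gene, filled where limma's adjusted p passed 0.05; the dotted line is the median of all tested genes, 0.73. Points of the latency, matrix-binding and target groups lie mostly to the right of the line, with medians of 3.33, 4.46 and 2.19, and those of the other ligands and receptors lie around it, with medians of 0.40 and 0.81.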

How the data were processed

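Total RNA of whole PT muscle from 12 limbs was made into libraries by the TruSeq protocol. Per the study's methods, the authors pseudoaligned reads to the UCSC pig genome, build 9.2, with kallisto (default parameters), and DESeq2 was their test. The deposited values are the authors' TPM for 11506 rows, and no coordinates come with them. All 12 value columns were matched to samples by limb, and 0 columns were left over. A gene ID gave a symbol to 618 of 1833 rows with a LOC name, 21 names had been turned into dates, and 239 rows were at 0 in every library. The rows held 71.5 to 82.7% of each library's full TPM, and 71.5 to 74.4% in the shams, at the low end of that range. Depth is not known from TPM, so the number of limbs sets the precision.

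A row was tested if some group had 1 TPM or more in each of its libraries, which held for 8782. Values were taken as log2(TPM + 0.5), a scale that understates the change of genes with low TPM. A single limma fit (version 3.58.1, R 4.3.3) held all 12 libraries, with a coefficient for each group and with eBayes set to trend and robust. Adjusted p are Benjamini-Hochberg values over all genes tested, called below 0.05. Standard errors are limma's. VML-injured weights the 3 injured groups equally, while means ± SD are over limbs. For rescaled TPM, each library was multiplied by its own factor, a mean of log ratios after trimming 30% of ratios and 5% of abundance, and then filtered and fitted in the same way. Ratios were tested by exact permutation in Python 3.11.15 with SciPy 1.17.1. The comparison of VML-injured with sham-operated muscle was also run on simulated data, with independent limbs and known changes in a small set of genes. The simulated data had no shift across most genes, so that run does not test the scale of TPM. DESeq2 needs counts and was not run here.

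The 10 genes and all lists were chosen with earlier results of these data known. Genes named from a pathway list were its first 3 tested genes and the 3 with the smallest p in VML-injured against sham-operated muscle. 1 of the genes so chosen is not reported here. For each of the 10 genes, the 3 genes with the most alike pattern over the injured limbs were found. The alternatives were both rescalings, pseudocounts of 0.1 and 1, no filter and a filter of 5 TPM, limma with neither trend nor robust estimation, the compared groups' libraries alone, each limb left out, and both limbs of pig 017 left out. Dates in place of names, and rows with no symbol, were kept in the fit and named nowhere.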

Additional observations from a re-analysis of the deposited data

Results flagged for a closer look

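Within the 6 ECM-repaired limbs, the limb of pig 024 lay far from the nearest other limb, relative to the range of the group, for TGFBR2 at 151.4 TPM and for TGFBR3 at 15.9 TPM. The next highest ECM-repaired limb, in the plot of TPM by condition, was that of pig 014 at 80.9 TPM for TGFBR2 and that of pig 021 at 6.10 TPM for TGFBR3. Of 18 such tests 2 passed, and chance alone passes about 1 in 20. On rescaled TPM the limb of pig 024 was at 94.6 for TGFBR2, beside 88.8 in pig 014, and at 9.94 for TGFBR3, beside 6.47 in pig 014. Its rescaling factor, 0.625, was the lowest of all limbs. Pig 024 had the highest injured TPM for 7 of the 10 genes, and for 4 on rescaled TPM. Its endothelial markers, 529.9 TPM, and its smooth muscle and pericyte markers, 808.2 TPM, were the highest of the 12 limbs, and their part was not tested. In its absence 8 of the 10 genes were still called higher in VML-injured muscle.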

How the results depend on the processing

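No log2 fold change or ratio changed direction where it had been called. The number of the 10 genes called lower, 0 as deposited, was 2 (SMAD3 and SMAD7) in VML-injured, ECM-repaired, non-repaired and Hya-repaired muscle when rescaled by trimmed means, and again 2 in each when rescaled by median of ratios. With 1 limb left out at a time it was 0 to 1 in VML-injured and 0 to 1 in ECM-repaired muscle, the 1 being SMAD7 without pig 024. The number called higher in VML-injured muscle was 6 to 8 over the limbs left out. Of single genes, TGFBR3 in VML-injured muscle was also lost with a pseudocount of 1 (limma adjusted p = 0.0504), with no filter (0.0577) and without both limbs of pig 017 (0.0552), and with 1 limb left out for 5 of the injured limbs, those of pigs 016, 017 (non-repaired), 021, 022 and 023 (0.0544 to 0.0865). Of the values recomputed, 1002 were kept, which for a log2 fold change or ratio means the same direction and side of the threshold. A count of genes called was taken as kept if it changed little, as from 8 to 6. Another 10 counts, all of genes called lower, moved. Of the fold changes and ratios, 106 lost a call (among them the 5 ratios, with most single limbs left out), 27 gained one and 0 reversed. No paired analysis was possible because the replicate numbers were given in accession order and mark no shared animal, and pig 017 alone gave limbs to more than 1 group. The 2 sham-operated limbs and unknown depth limit every comparison with sham.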

Other observations

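Over the 10 injured limbs, which include both limbs of pig 017, each of the 10 genes was set against all other tested genes by Pearson's r of log2(TPM + 0.5). These are the highest of very many values, so they are given as a description with no p, and libraries with low rescaling factors raise many genes together. TGFB2 was most like CCDC80, a secreted matrix protein (r = 0.981, and 0.960 on rescaled TPM), TGFBR2 most like WASF2, an actin regulator (0.985 and 0.985), and RUNX2, a transcription factor of bone, was among its nearest (0.982 and 0.976). TGFB1 was most like CREB3 (0.971 and 0.964), TGFB3 most like VIPR2 (0.951 and 0.923), TGFBI most like THBS3, a thrombospondin (0.946 and 0.942), and CTGF most like AQP3 (0.948 and 0.921), with the immediate early gene EGR1 second (0.910 and 0.785). For comparison, the median r over all tested genes was 0.502 for TGFB2 and 0.142 for CTGF, and 0.080 and 0.003 on rescaled TPM. The scale decided some of these neighbors. After rescaling, PON2 was nearest to CTGF (0.960), with AQP3 placed 2 and EGR1 placed 40, and THBS3 was placed 2 for TGFBI. AP2B1, among the nearest to TGFBR3 at 0.972, had 0.207 after rescaling and was placed 2603.

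Other cell markers moved as follows, beside 49.4% of all tested genes called higher and 7.66% lower on TPM as deposited. T and NK lymphocyte markers summed to 2.35 and 4.87 TPM in the shams and reached 12.5 to 61.9 TPM in injured limbs, with 2 of 3 tested genes higher and the highest sum in the ECM-repaired limb of pig 018. Tendon markers summed to 18.8 and 102.5 TPM against 823.2 to 3355 TPM, with 2 of 2 higher. Smooth muscle and pericyte markers summed to 476.1 and 621 TPM against 313.3 to 808.2 TPM, with 1 of 5 higher and 1 lower. After rescaling 0 of these were higher and 2 lower, and 1 lymphocyte marker was higher. Platelets are a store of TGFB1, and platelet markers summed to 0.70 and 1.28 TPM against 0.92 to 3.51 TPM, with 0 of 1 tested gene called and with PPBP and GP1BB at 0 in at least 1 library.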
